A study of Mus musculus with 16 samples.

Results

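The pancreatic acinar secretory genes are the digestive enzymes, enzyme inhibitors, zymogen granule proteins and transcription factors of the pancreatic acinar cell, here followed in macrophages sorted from pancreas. A list of 34 genes was matched by gene name to a whole-genome array, and 32 were found and tested among 24297 genes. Spink1 is carried under its mouse name Spink3, and Prss3 and Amy2b had no probe under those names. The arrays held 5 tumor YFP+ and 5 tumor YFP- samples, and 3 normal pancreas YFP+ and 3 normal pancreas YFP- samples. YFP is a fluorescent reporter, and the series names a Flt3-driven Cre with a Cre-dependent YFP allele, which marks cells descended from Flt3-expressing blood progenitors. All samples came from female C57/B6 mice of 8 to 10 weeks, with the genotype not provided for any sample. The treatment field speaks of implanted tumors, whereas the series text names wild-type, KPC (a genetic model of pancreatic cancer) and reporter mice, so the tumor model of a given sample is not settled. The cells were sorted into lysis buffer, and the sort markers are not given in the sources used here. Samples are identified below by the number in their titles, in the order 23547, 23548, 23550, 23551 and 23677 for tumor and 23912, 23916 and 23917 for normal pancreas. The labels do not say that a number is 1 mouse, so the p-values measure the spread between these samples, which may be partly technical.

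Acinar cells synthesise most of the protein secreted by the pancreas. They store proteases as inactive zymogens in granules, together with lipases, amylase and ribonuclease, and release them into the ducts. The transcription factors Ptf1a and Rbpjl, which act in one complex, and Nr5a2 hold acinar enzyme genes active. In the intact organ the transcripts of these enzymes are among the most abundant.

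Macrophage markers were present throughout. All 13 macrophage genes that were tested, of 14 listed, were well above background on every array. The log2 of their summed level ranged over 8.17 to 8.60 on tumor YFP+ arrays and over 8.11 to 8.70 on tumor YFP- arrays. On the YFP+ arrays of normal pancreas it ranged over 8.37 to 8.71, and on the YFP- arrays over 8.20 to 9.10. Itgam and C1qb averaged 6.70 and 6.06 on tumor YFP+ arrays. Between 64.9% and 75.4% of spots were well above background per array, and no spot was saturated. Each of 4 slides held 4 arrays and 3 or more of the 4 groups. Levels are log2 intensities relative to the 75th percentile of each array, so that 0 is that percentile, and the number of arrays limits their precision.

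The acinar genes were far lower in tumor than in normal pancreas samples, in both sorted populations. The common acinar level of an array, which is the median over the 32 genes of each gene's log2 distance from its own mean over the 16 arrays, averaged -2.56 ± 0.22 over tumor YFP+ arrays and -1.83 ± 0.36 over tumor YFP- arrays (SD, n = 5 each). In normal pancreas it averaged 3.54 ± 0.27 in the YFP+ and 4.37 ± 0.59 in the YFP- population (SD, n = 3 each). The 32 genes took up 0.0119% to 0.0223% of the summed signal on tumor YFP+ arrays and 0.0173% to 0.0354% on tumor YFP- arrays. On normal arrays they took up 0.756% to 1.02% in the YFP+ and 0.942% to 1.90% in the YFP- population. Tumor and normal arrays did not overlap in either measure. In bulk samples of this kind, fewer cells of a type and less RNA per cell cannot be told apart. All 32 genes were well above background on every normal array, against 25 to 29 per tumor YFP+ array and 25 to 30 per tumor YFP- array.

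**Figure D1:**
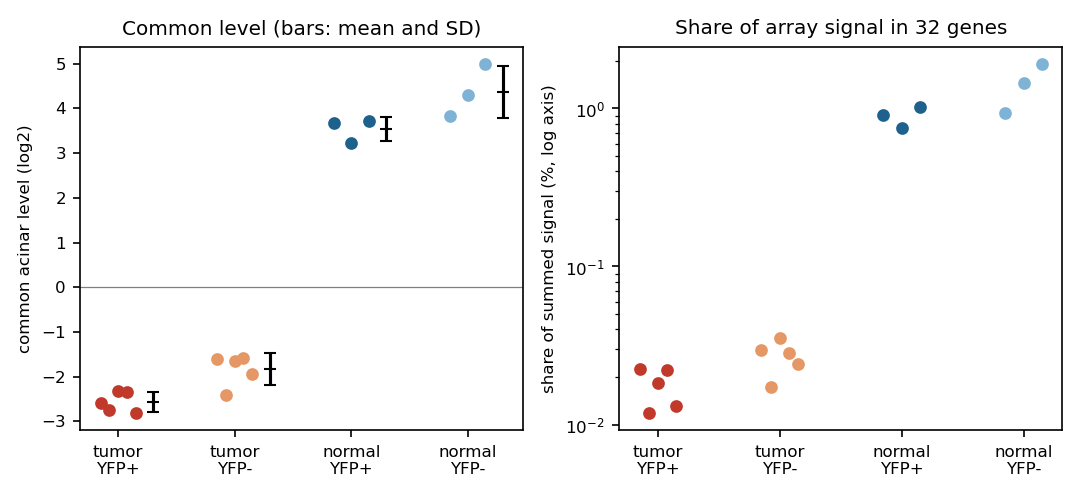
Left, the common acinar level of each array (log2), with the mean and SD of each group beside its points. Right, the share of summed array signal in the 32 genes (percent, log axis). The tumor samples lie between -2.80 and -1.57 on the left, and the normal samples between 3.23 and 4.99.

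**Figure D2:**
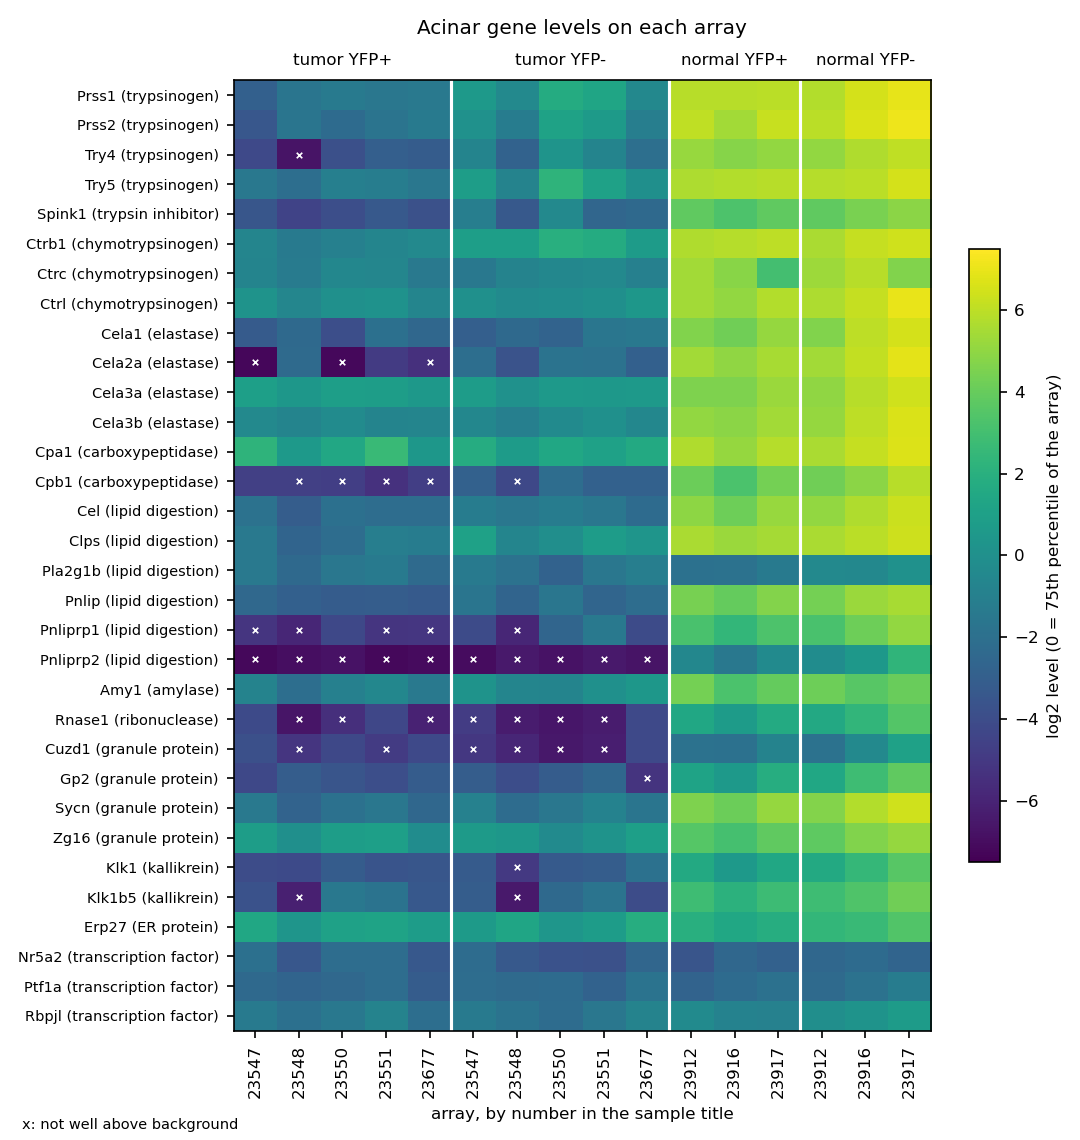
Log2 level of each of the 32 genes (rows, with their class) on each of the 16 arrays (columns, by group), where 0 is the 75th percentile of the array and white crosses mark spots not well above background. Most genes are high across the 6 normal arrays and low across the 10 tumor arrays, whereas Pla2g1b, Ptf1a, Nr5a2, Rbpjl and Erp27 differ least between tumor and normal arrays. Each gene is shown on its brightest probe, and the second Pla2g1b probe was not well above background on any tumor array.

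Between tumor and normal pancreas, 27 of the 32 genes were lower in tumor YFP+ samples (limma, Benjamini-Hochberg adjusted p under 0.05 over all genes), against a background of 12.1% of all genes called and 6.07% called lower. In YFP- samples 30 of 32 were lower, against 15.8% called and 7.74% called lower. Both counts, and those of groups without overlap below, include Pnliprp2, which was well above background on normal arrays only. None was higher, against 6.03% of all genes called higher in YFP+ and 8.03% in YFP- samples. The median difference over the 32 genes was -6.06 log2 in YFP+ samples, where the median of all genes was -0.04, and -6.21 in YFP- samples, where it was -0.16. The groups did not overlap, with tumor the lower, for 28 of 32 genes in the YFP+ comparison, against 11.8% of all genes, and for 30 of 32 in the YFP- comparison, against 9.87%. Within single slides the median difference was -6.33, -6.37 and -6.11 in YFP+ samples on slides 1, 2 and 3, and -7.55, -5.77 and -5.93 in YFP- samples on slides 2, 3 and 4.

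All 4 trypsinogens, the precursors of trypsin, were lower in tumor. Prss1 levels were -2.89, -1.69, -1.36, -1.55 and -1.42 among tumor YFP+ arrays, 0.58, -0.46, 1.71, 1.33 and -0.52 among tumor YFP- arrays, 5.90, 5.91 and 5.97 among normal YFP+ arrays and 5.75, 6.51 and 6.97 among normal YFP- arrays. Prss2 levels were -3.44, -1.66, -2.26, -1.74 and -1.31 among tumor YFP+ arrays, 0.07, -1.21, 1.15, 0.69 and -1.09 among tumor YFP- arrays, 6.05, 5.45 and 6.24 among normal YFP+ arrays and 5.94, 6.65 and 7.13 among normal YFP- arrays. In each of these 2 genes every normal array lay above every tumor array. The difference between tumor YFP+ and normal YFP+ was -7.70 ± 0.50 (SE) for Prss1 and -7.99 ± 0.56 for Prss2, or 209-fold and 255-fold. Try4 and Try5, further trypsinogens, were lower by 586-fold and 151-fold in tumor YFP+ samples, with differences of -9.19 and -7.24. Try4 was well above background on 4 of 5 tumor YFP+ arrays. In YFP- samples the 4 trypsinogens differed by -5.43 (Try5) to -6.81 (Try4). Spink1, the trypsin inhibitor that protects the granule, was lower too, with differences of -7.43 and -6.35 in YFP+ and YFP- samples.

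Near-identical probes limit how far single trypsinogens and elastases can be told apart, so the aligned probe sequences that bear on the results are shown, as given in the annotation of the arrays on build mm9, with capitals marking the bases that differ between the members of a pair. The Prss1 probe used here and the probe of Gm5409, a trypsinogen-like gene, match at 45 of 48 aligned bases. The Cela3a probe used here and the Cela3b probe match at 52 of 58.
Prss1, chr6:41412562-41412621, plus strand: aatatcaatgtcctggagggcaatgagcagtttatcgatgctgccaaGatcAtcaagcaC
Gm5409, chr6:41368282-41368341, plus strand: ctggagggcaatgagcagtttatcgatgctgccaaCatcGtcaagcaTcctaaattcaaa
Cela3a, chr4:136959734-136959793, minus strand: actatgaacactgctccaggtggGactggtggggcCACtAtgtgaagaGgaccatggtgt
Cela3b, chr4:136979192-136979251, minus strand: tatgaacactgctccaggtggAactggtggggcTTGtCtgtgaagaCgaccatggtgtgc
The Try4 and Try5 probes match at 43 of 45 aligned bases, so signal of these 2 genes may be shared.

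Each of the 3 chymotrypsinogens was lower in tumor. Of these enzymes, which are activated by trypsin, Ctrb1 levels were -0.67, -1.31, -0.97, -0.66 and -0.42 among tumor YFP+ arrays, 0.93, 0.88, 1.96, 1.74 and 0.76 among tumor YFP- arrays, 5.72, 5.85 and 6.02 among normal YFP+ arrays and 5.62, 6.20 and 6.40 among normal YFP- arrays. Ctrl levels were 0.19, -0.63, 0.01, 0.17 and -0.70 among tumor YFP+ arrays, 0.02, -0.34, -0.21, -0.03 and 0.42 among tumor YFP- arrays, 5.42, 5.08 and 5.75 among normal YFP+ arrays and 5.64, 6.19 and 6.98 among normal YFP- arrays. Tumor and normal samples of both genes stood apart, with differences of -6.67 ± 0.30 and -5.61 ± 0.31 in YFP+ and -4.82 and -6.30 in YFP- samples. Ctrc, which also degrades trypsinogen, differed by -5.35 and -6.13.

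All 4 elastases were lower in tumor. Cela3b levels were -0.46, -0.76, -0.25, -0.73 and -0.67 among tumor YFP+ arrays, -0.58, -1.01, -0.31, 0.00 and -0.57 among tumor YFP- arrays, 5.07, 4.91 and 5.41 among normal YFP+ arrays and 5.12, 5.98 and 6.66 among normal YFP- arrays. Cela1 levels were -3.19, -2.35, -3.88, -1.95 and -2.49 among tumor YFP+ arrays, -2.93, -2.39, -2.73, -1.64 and -1.52 among tumor YFP- arrays, 4.64, 4.22 and 5.10 among normal YFP+ arrays and 4.64, 5.98 and 6.56 among normal YFP- arrays. Cela3a levels were 0.95, 0.44, 0.89, 0.83 and 0.51 among tumor YFP+ arrays, 0.77, 0.07, 0.62, 0.47 and 0.57 among tumor YFP- arrays, 4.57, 4.57 and 5.24 among normal YFP+ arrays and 5.02, 5.87 and 6.44 among normal YFP- arrays. Normal samples were the higher ones in every case, by 52.1-fold, 172-fold and 16.8-fold in YFP+ samples. On the probes used, Cela2a had the largest difference of the 32 genes in both populations, at -10.72 ± 0.87 in YFP+ and -8.60 ± 0.87 in YFP- samples. Of its 5 tumor YFP+ arrays 2 were well above background.

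Both carboxypeptidases, which trim amino acids from the end of a peptide, were lower in tumor but by unequal amounts. Cpa1 levels were 2.23, 0.58, 1.52, 2.67 and 0.46 among tumor YFP+ arrays, 1.82, 0.73, 1.46, 1.11 and 1.62 among tumor YFP- arrays, 5.72, 5.15 and 5.80 among normal YFP+ arrays and 5.58, 6.19 and 6.72 among normal YFP- arrays. Cpb1 levels were -4.67, -4.68, -4.73, -5.36 and -4.72 among tumor YFP+ arrays, -2.82, -4.26, -2.12, -2.86 and -2.85 among tumor YFP- arrays, 4.11, 3.27 and 4.34 among normal YFP+ arrays and 4.25, 4.89 and 5.87 among normal YFP- arrays. Cpa1 stayed above the 75th percentile on every tumor array and differed by -4.06 (YFP+) and -4.81 (YFP-), whereas Cpb1 was well above background on 1 of 5 tumor YFP+ arrays and differed by -8.74 and -7.98.

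Of the 6 genes of lipid digestion, 5 passed as lower in the YFP+ comparison and 6 in the YFP- comparison. Pnlip, the main triglyceride lipase, had levels of -2.46, -2.87, -3.15, -3.10 and -3.27 among tumor YFP+ arrays, -1.67, -2.67, -1.63, -2.63 and -2.14 among tumor YFP- arrays, 4.44, 3.94 and 4.73 among normal YFP+ arrays and 4.39, 5.23 and 5.53 among normal YFP- arrays. Clps, the lipase cofactor colipase, had levels of -1.43, -2.69, -2.12, -1.06 and -1.18 among tumor YFP+ arrays, 1.11, -0.68, -0.07, 0.78 and 0.33 among tumor YFP- arrays, 5.61, 5.26 and 5.48 among normal YFP+ arrays and 5.58, 5.96 and 6.36 among normal YFP- arrays. Cel, the bile salt-activated lipase, had levels of -1.83, -3.11, -1.95, -2.14 and -2.13 among tumor YFP+ arrays, -1.23, -1.55, -1.23, -1.57 and -2.23 among tumor YFP- arrays, 4.96, 4.20 and 5.17 among normal YFP+ arrays and 5.07, 5.70 and 6.29 among normal YFP- arrays. Their differences were -7.34 ± 0.32, -7.15 ± 0.41 and -7.01 ± 0.35 in YFP+ samples, and no tumor sample reached a normal one. Pnliprp2, a pancreatic lipase relative, had levels of -7.16, -6.91, -6.78, -7.16 and -7.07 among tumor YFP+ arrays, -6.99, -6.47, -6.79, -6.49 and -6.71 among tumor YFP- arrays, -0.57, -1.51 and -0.30 among normal YFP+ arrays and -0.22, 0.50 and 2.30 among normal YFP- arrays. It was not well above background on any of the 10 tumor arrays, so that its levels there are bounds. The bound was taken, per array, as the higher of its own value and the lowest signal well above background. On it Pnliprp2 was at least 16.9-fold lower in tumor YFP+ and at least 40.7-fold lower in tumor YFP- samples. The limma test used its readings and not these bounds (adjusted p 3.6e-07 and 5.11e-08). Pnliprp2 passed the filter for signal well above background only through its normal arrays, so these p-values give no support. Pnliprp1, another relative with little lipase activity, differed by -8.08 and -7.77. It was well above background on 1 of 5 tumor YFP+ and 4 of 5 tumor YFP- arrays, so that its tumor levels are partly bounds.

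Amylase 1 (Amy1) differed by -4.996 and -4.09, and the ribonuclease Rnase1 by -6.59 and -8.13, in YFP+ and YFP- samples. The Amy1 probe matches that of Amy2a5, pancreatic amylase, at 39 of 46 aligned bases, so the Amy1 signal may be partly shared. Rnase1 was well above background on 2 of 5 tumor YFP+ and 1 of 5 tumor YFP- arrays. Sycn (syncollin), a membrane protein of the zymogen granule, had levels of -1.44, -2.72, -1.92, -1.53 and -2.47 among tumor YFP+ arrays, -0.92, -2.18, -1.56, -0.87 and -1.69 among tumor YFP- arrays, 4.59, 4.12 and 5.11 among normal YFP+ arrays and 4.72, 5.78 and 6.41 among normal YFP- arrays. It was 98.6-fold lower in tumor YFP+ and 135-fold lower in tumor YFP- samples. The granule proteins Gp2, Zg16 and Cuzd1 differed by -4.80, -3.005 and -2.97 in YFP+ samples, and the tissue kallikreins Klk1 and Klk1b5 by -4.90 and -5.89. Of the 5 tumor YFP+ arrays, Cuzd1 was well above background on 3 and Klk1b5 on 4.

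The 5 genes that did not pass the test in YFP+ samples were the transcription factors Ptf1a, Rbpjl and Nr5a2, the secreted phospholipase Pla2g1b and the endoplasmic reticulum protein Erp27. Ptf1a levels were -2.38, -2.66, -2.41, -2.13 and -3.11 among tumor YFP+ arrays, -2.15, -2.29, -2.27, -2.78 and -1.78 among tumor YFP- arrays, -2.71, -2.25 and -1.92 among normal YFP+ arrays and -2.32, -1.87 and -1.19 among normal YFP- arrays. Rbpjl levels were -1.35, -1.95, -1.50, -0.80 and -2.11 among tumor YFP+ arrays, -1.31, -1.79, -2.20, -1.53 and -0.78 among tumor YFP- arrays, -0.33, -0.85 and -0.92 among normal YFP+ arrays and -0.08, 0.20 and 0.70 among normal YFP- arrays. Nr5a2 levels were -1.95, -3.40, -2.16, -2.14 and -3.36 among tumor YFP+ arrays, -2.18, -3.30, -3.71, -3.77 and -2.57 among tumor YFP- arrays, -3.52, -2.49 and -2.82 among normal YFP+ arrays and -2.51, -2.28 and -2.69 among normal YFP- arrays. Ptf1a and Nr5a2 overlapped between tumor and normal samples in both populations, with differences of -0.24 ± 0.30 and 0.34 ± 0.43 in YFP+ and -0.46 ± 0.30 and -0.61 ± 0.43 in YFP- samples. Rbpjl fell by 1.80 in tumor YFP- samples (adjusted p 0.00209, limma) and had a difference of -0.84 in YFP+ samples (adjusted p 0.133). Erp27 levels were 1.41, 0.33, 1.09, 1.21 and 0.79 among tumor YFP+ arrays, 0.69, 1.35, 0.36, 0.76 and 1.84 among tumor YFP- arrays, 1.96, 1.43 and 1.83 among normal YFP+ arrays and 2.45, 2.64 and 3.41 among normal YFP- arrays. Erp27 fell by 1.83 in tumor YFP- samples and missed the threshold in YFP+ samples, with a difference of -0.77.

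Pla2g1b and Nr5a2 read differently on their other probe. The brighter Pla2g1b probe, which carries a cDNA accession, had levels of -1.41, -2.38, -1.56, -1.30 and -2.31 among tumor YFP+ arrays, -1.39, -1.83, -2.78, -1.56 and -1.09 among tumor YFP- arrays, -1.89, -1.82 and -1.31 among normal YFP+ arrays and -0.44, -0.48 and 0.09 among normal YFP- arrays. Its difference was -0.12 in YFP+ samples, where the groups overlapped, and it fell by 1.45 in tumor YFP- samples (adjusted p 0.0128, limma), where they did not. The second Pla2g1b probe was not well above background on any tumor array, and with the same kind of bound it was at least 200-fold lower in tumor YFP+ and at least 309-fold lower in tumor YFP- samples. The second Nr5a2 probe was well above background on 3 of the 16 arrays, none of them tumor, which gave at least 2.27-fold lower in tumor YFP- samples and no fold in YFP+ samples.

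**Figure D3:**
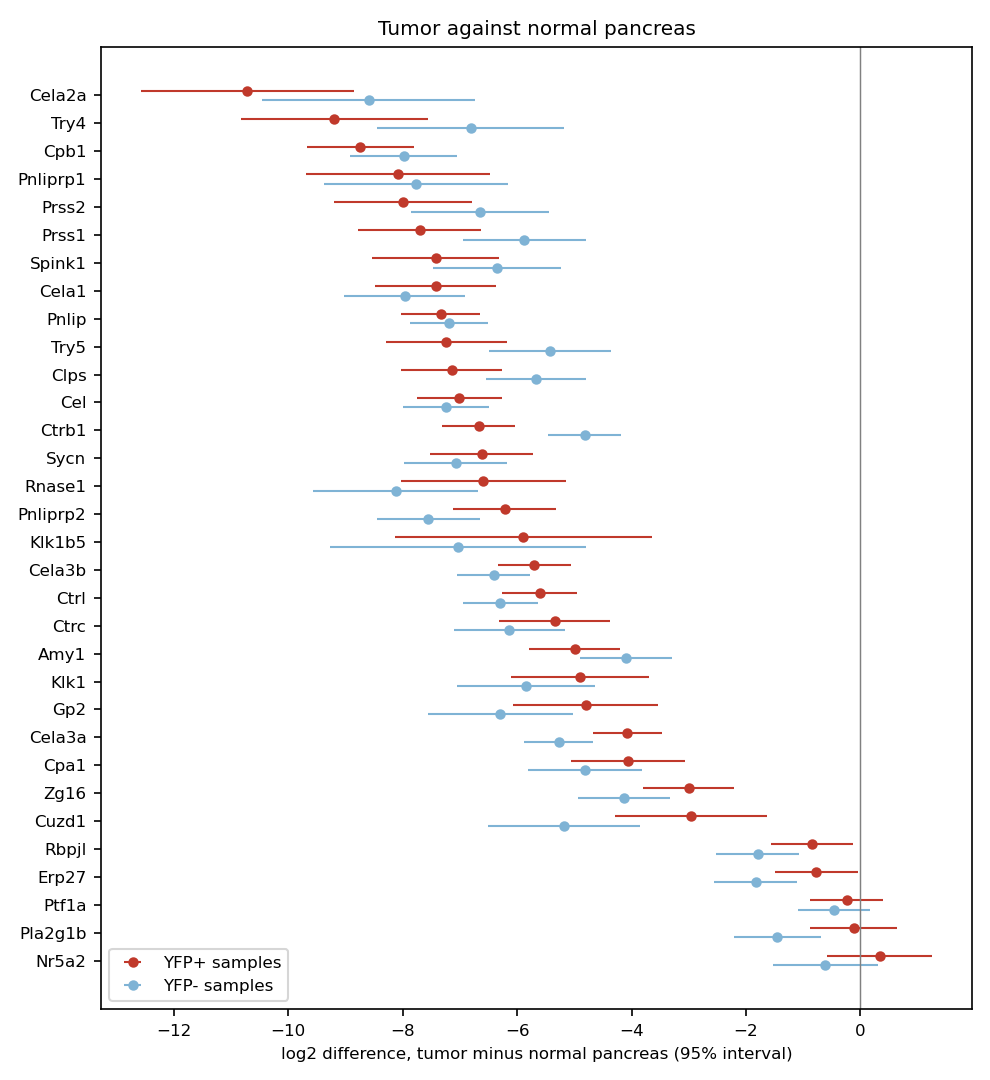
Log2 difference of each gene, tumor minus normal pancreas, with its 95% interval, for YFP+ (red) and YFP- (blue) samples. Cela2a has the lowest value, at -10.72 in YFP+ samples, and the 5 genes nearest 0 are Nr5a2, Pla2g1b, Ptf1a, Erp27 and Rbpjl. Each gene is shown on its brightest probe, and the second Pla2g1b probe was far lower in tumor. The points of Pnliprp2 rest on tumor levels that are bounds. Some tumor levels of Cela2a, Cpb1, Pnliprp1, Rnase1, Cuzd1, Try4, Klk1b5, Gp2 and Klk1 were also not well above background.

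The promoters of these genes were searched for the letters of sites that the acinar transcription factors are known to use, since Ptf1a and Rbpjl bind a pair of motifs together. The Ptf1a motif is CANNTG and the Rbpjl motif is TTTCCC, and both strands were searched over the 250 bases before the start. Of the 34 genes 28 had a promoter in the RefSeq table (build GRCm38.p6). The pair, with starts 6 to 30 bases apart, was found in 5 of the 28 (17.9%), against 5.1% of 27025 genes. TTTCCC alone was found in 28.6% of the 28 and 24.4% of all, and CANNTG in 78.6% and 69.3%. CAAGGTCA, a site of Nr5a2, was found in 2 of the 28 (7.1%) and in 1.5% of all. TATAAA in the last 50 bases before the start, on the sense strand, was found in 28.6% and 3.1%. The 5 windows are shown because they hold the pair, with the CANNTG and TTTCCC matches (or GGGAAA on the other strand) in capitals.
Cel, chr2:28563443-28563509, minus strand: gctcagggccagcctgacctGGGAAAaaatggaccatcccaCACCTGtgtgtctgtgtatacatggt
Cela1, chr15:100687965-100688039, minus strand: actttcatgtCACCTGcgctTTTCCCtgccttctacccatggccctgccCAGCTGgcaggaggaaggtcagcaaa
Cpa1, chr6:30639160-30639217, plus strand: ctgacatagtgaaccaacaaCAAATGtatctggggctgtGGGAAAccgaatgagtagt
Ctrb1, chr8:111691180-111691235, minus strand: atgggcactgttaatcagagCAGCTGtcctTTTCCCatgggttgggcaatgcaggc
Prss1, chr6:41458804-41458859, plus strand: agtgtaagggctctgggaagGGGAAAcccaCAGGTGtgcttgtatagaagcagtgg
A match describes letters in the window and is neither a measured binding site nor a cause of the levels above.

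Within tumors, 8 of the 32 genes were lower in YFP+ than in YFP- samples and none was higher, against 2.39% of all genes called, 1.62% called lower and 0.766% called higher. They were the 4 trypsinogens, Spink1, Ctrb1, Clps and Cpb1. Their differences lay between -2.97 and -1.83, while the median over all 32 genes was -0.36 and 25 genes lay below 0. Tumor YFP+ samples all lay below tumor YFP- samples for each of the 8, which were chosen by the test on the same arrays, and for 2.77% of all genes.

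Ctrb1 had the smallest adjusted p, with a difference of -2.06 ± 0.26 (SE) and an adjusted p of 0.000505 (limma). Its tumor YFP+ samples lay between -1.31 and -0.42, against 0.76 to 1.96 in tumor YFP- samples. Clps differed by -1.99 ± 0.36 (adjusted p 0.00595), at -2.69 to -1.06 against -0.68 to 1.11. Prss1 differed by -2.31 ± 0.43 (adjusted p 0.00834), at -2.89 to -1.36 against -0.52 to 1.71. Prss2 differed by -2.003 ± 0.49 (adjusted p 0.044). Cpb1 differed by -1.85 ± 0.38 (adjusted p 0.0143), although 1 of 5 tumor YFP+ arrays and 4 of 5 tumor YFP- arrays were well above background, so that its YFP+ level is partly a bound.

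Try4, Try5 and Spink1, which fall outside the rule for named genes, were added after their values were seen because they passed this test. Try5 levels were -1.50, -2.08, -1.01, -1.12 and -1.57 among the YFP+ and 0.86, -0.78, 2.23, 1.10 and -0.01 among the YFP- tumor arrays, a difference of -2.14 ± 0.43 (adjusted p 0.0132, limma). Try4 levels were -4.21, -6.72, -3.85, -2.99 and -3.11 among the YFP+ and -0.73, -2.77, 0.24, -0.75 and -2.05 among the YFP- tumor arrays, a difference of -2.97 ± 0.66 (adjusted p 0.0265, limma). Try4 was well above background on 4 of 5 tumor YFP+ arrays, so that its YFP+ level is partly a bound. Spink1 levels were -3.46, -4.47, -3.90, -3.32 and -3.77 among the YFP+ and -1.08, -3.31, -0.44, -2.54 and -2.39 among the YFP- tumor arrays, a difference of -1.83 ± 0.45 (adjusted p 0.0468, limma). In all 3 the YFP+ samples were the lower ones, and in Spink1 the margin was narrow, with YFP+ sample 23551 at -3.32 and YFP- sample 23548 at -3.31.

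The other 24 genes did not pass. Cela2a, chosen here after its values were seen, had -7.23, -2.30, -7.19, -4.89 and -5.39 among the YFP+ and -2.08, -3.63, -1.80, -1.86 and -2.93 among the YFP- tumor arrays, and its difference of -2.94 ± 0.76 missed the threshold (adjusted p 0.0605, limma). Sample 23548 of tumor YFP+ lay within the YFP- range, and the other 4 lay below it. Cela3b, Ctrl, Cela3a, Cpa1 and Zg16 differed by -0.08, -0.16, 0.22, 0.14 and 0.10, each with a 95% interval that held 0. Cuzd1 had the highest difference, 1.10 ± 0.54, with an adjusted p of 0.518. The 3 transcription factors differed by -0.28 (Ptf1a), -0.02 (Rbpjl) and 0.50 (Nr5a2).

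Probes of 1 gene disagreed for Prss1 and Cela3a. The second Prss1 probe differed by -0.015 between tumor YFP+ and YFP- samples, against -2.31 for the probe used, and was well above background on 5 of the 10 tumor arrays. The second Cela3a probe differed by -2.61, against 0.22 for the probe used, and was well above background on 9 of 10. The second Clps probe, at -2.53, ran the same way as the first. Between tumor and normal pancreas all of these probes had negative differences, which were -6.76 (YFP+) and -8.21 (YFP-) for the second Prss1 probe and -9.42 and -7.58 for the second Cela3a probe.

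The count of 8 depended on single title numbers, each left out with both of its arrays. It was 2 without 23547, 4 without 23550, 3 without 23551 and 5 without 23916, and 4 with slide as a block. Ctrb1 and Clps passed under all 17 alternatives that were run, Prss1 and Try5 under 15, Try4 and Cpb1 under 12, Prss2 under 6 and Spink1 under 4. The median over the 32 genes was -0.72, -0.40, -0.67 and -0.37 on slides 1 to 4.

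**Figure D4:**
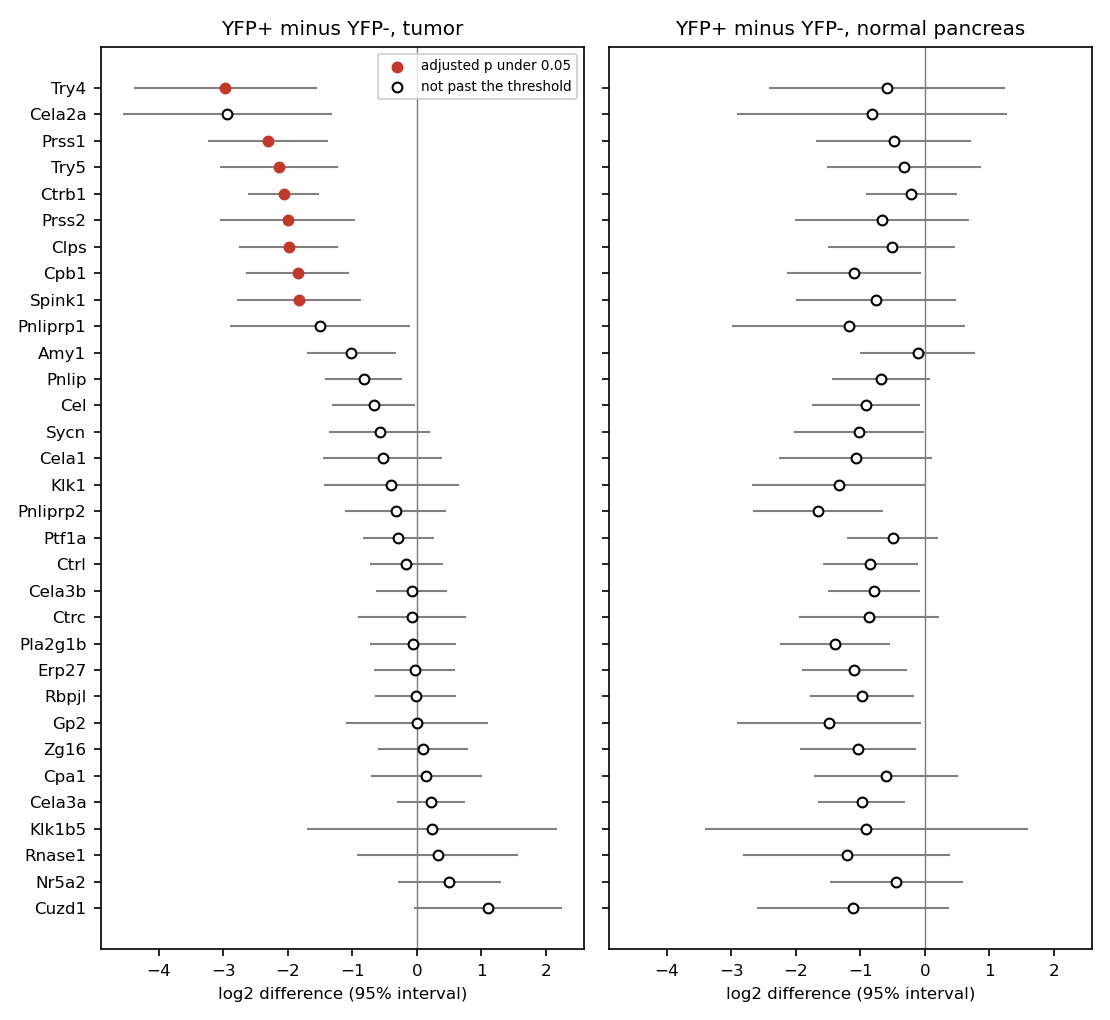
Log2 difference of each gene, YFP+ minus YFP-, with its 95% interval, in tumor (left) and normal pancreas (right). Filled points passed an adjusted p of 0.05. In tumor the 8 filled points lie between -2.97 and -1.83, while in normal pancreas all 32 points lie below 0 and none is filled.

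In normal pancreas none of the 32 genes passed the test between YFP+ and YFP- samples, against 0.0206% of all genes called (0.0123% lower and 0.00823% higher), and 12 had an unadjusted p under 0.05 (limma), against 3.17% of all genes at that threshold and lower. All 32 differences were below 0, with a median of -0.89, where the median of all genes was -0.10. The lowest were Pnliprp2 (-1.66 ± 0.47, adjusted p 0.245), Gp2 (-1.49) and Pla2g1b (-1.39). The groups did not overlap, with YFP+ the lower, for 5 genes, Pnliprp2, Pla2g1b, Erp27, Rbpjl and Spink1, against 6.84% of all genes. The 32 genes are read from the same 6 arrays, so that their signs are not independent of each other. On slide 2 the median difference was -1.45, and on slide 3 it was 0.10. By title number it was -0.04 in 23912, -1.21 in 23916 and -1.26 in 23917. With limma array weights 7 genes passed, all lower, against 1.35% of all genes called lower with these weights.

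No gene passed the test of whether the YFP difference was unequal in tumor and normal pancreas, against 0.103% of all genes called (0.0659% lower and 0.037% higher). Ctrb1 came nearest, at -1.85 ± 0.42 (adjusted p 0.166, limma), and 10 genes had an unadjusted p under 0.05, against 5.98% of all genes, with Ctrb1, Prss1, Try4, Try5 and Clps below 0 and Cela3a, Pla2g1b, Cuzd1, Pnliprp2 and Erp27 above 0. Of these Pnliprp2 was not well above background on any tumor array, so its tumor YFP difference is not a measured one. Cuzd1 was well above background on 3 of 5 tumor YFP+ and 1 of 5 tumor YFP- arrays. The 8 genes lower in tumor YFP+ differed in normal pancreas by a median of -0.55 and the other 24 by -0.98. With array weights 2 genes passed, Ctrb1 at -1.79 and Cela3a at 1.36, against 1.47% of all genes called with these weights. The direction depended on the probe for Cela3a and Prss1, whose second probes gave -1.84 and 1.45 without weights, and the second Pla2g1b probe gave -0.01. The comparisons share arrays, so their values are given side by side and not as independent results.

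The common acinar level was then taken out of each array, leaving each gene's own deviation. Over the 16 arrays the median SD of a gene was 3.21 before and 0.98 after, with a smaller SD for 27 of 32 genes. Within the 6 normal arrays it was 0.69 before and 0.27 after, again smaller for 27 of 32. Within the 10 tumor arrays it was 0.74 before and 0.70 after, smaller for 23 of 32. Between 23 and 30 of the 32 genes lay within 0.5 log2 of the common level on each normal array.

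With each gene's mean taken over the 6 normal arrays alone, the common level was -0.32, -0.76 and -0.12 in YFP+ samples and -0.27, 0.44 and 1.08 in YFP- samples. Samples 23916 and 23917 of normal YFP- were the highest. Over all arrays the smallest remaining SD belonged to Cela3b (0.32), Ctrl (0.36), Sycn (0.48) and Cel (0.59). The largest belonged to Nr5a2 (3.11), Ptf1a (2.93), Pla2g1b (2.74) and Erp27 (2.49), followed by Rbpjl (2.47). For these 5 genes the SD before was 0.45 to 0.85, smaller than after. For Pla2g1b this holds on the probe used. Its second probe was at least 200-fold lower in tumor YFP+ and at least 309-fold lower in tumor YFP- samples. Cela2a departed the other way, with a mean deviation of -2.53 in tumor YFP+ and 2.08 in normal YFP+ samples.

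Ctrc had the largest remaining SD within the normal arrays, at 1.17, and is described because of it. Its levels were 5.39, 4.85 and 3.03 among the YFP+ and 5.31, 5.91 and 4.64 among the YFP- normal arrays. Both samples of number 23917 were low, with deviations from the common level of -1.71 (YFP+) and -1.30 (YFP-), while the other 4 lay above it. The second Ctrc probe had -1.42 and -0.26 in the YFP+ and YFP- samples of 23917, against 2.28 to 4.14 in the other 4. The cause was not tested.

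**Figure D5:**
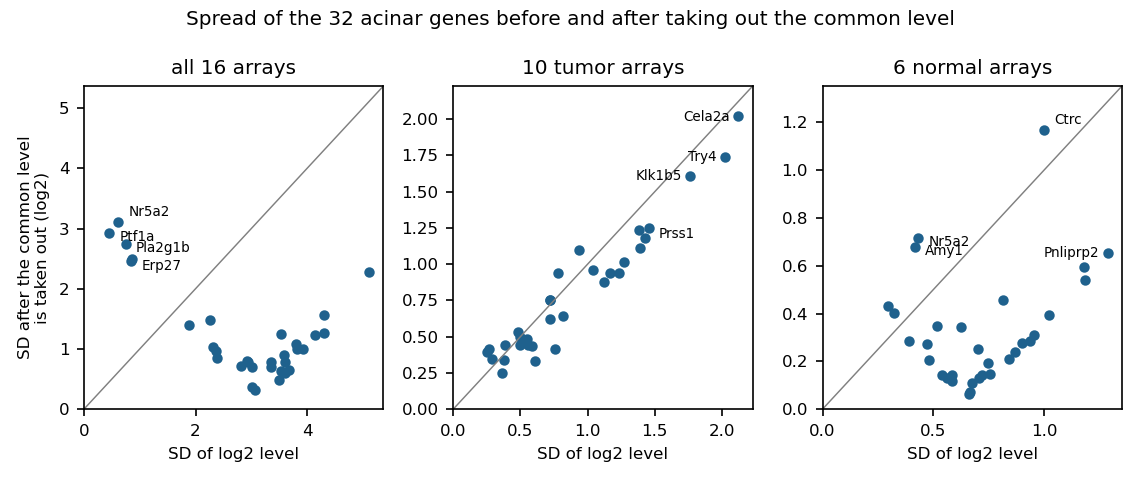
SD of each gene's log2 level over the arrays (x) against its SD after the common acinar level is taken out (y), for all 16 arrays, the 10 tumor arrays and the 6 normal arrays, with the 4 largest remaining SDs named. Points under the diagonal line, 27 of 32 for all arrays and for normal arrays, vary less once the common level is taken out, and Ctrc is the highest point among the normal arrays.

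Acinar genes outside the list gave a mixed picture. Of 35 such genes 27 were tested. In tumor YFP+ against normal YFP+ samples 10 were lower and 3 higher, and in YFP- samples 14 were lower and 2 higher. Of all genes, 6.07% were called lower and 6.03% higher in the YFP+ comparison, and 7.74% and 8.03% in the YFP- comparison. The lower ones included Amy2a5 (-6.44, pancreatic amylase), Gm5409 (-9.61), Gm10334 (-7.14) and Gm5771 (-7.21), the last 3 of them trypsinogen-like genes, and Cckar, the cholecystokinin receptor, which was not well above background on any tumor array and was at least 2.62-fold lower in tumor YFP+ samples. Of the 5 tumor YFP+ arrays, Gm5409 and Gm10334 were well above background on 2 each and Gm5771 on 4. Their tumor YFP+ levels are thus partly bounds. The higher ones were Bhlha15 (3.45), Fkbp11 (2.17) and Xbp1 (1.19) in YFP+ samples, which plasma cells also express, and Xbp1 (0.96) and Gata6 (2.18) in YFP- samples. Bhlha15 was well above background on 1 of 3 normal YFP+ and 1 of 5 tumor YFP- arrays. Its levels in these 2 groups are therefore largely bounds, here and in the tumor comparison that follows. Between tumor YFP+ and YFP- samples 4 were lower, Amy2a5 (-2.26), Gm5409 (-2.38), Gata6 (-2.19) and Gm5771 (-1.55), and Bhlha15 was higher (3.74). Of all genes 1.62% were called lower and 0.766% higher in that comparison. In normal pancreas none passed, against 0.0206% of all genes called. The Gm5409 probe matches the Prss1 probe used here at 45 of 48 aligned bases, so its differences may not be separate from those of Prss1. The Reg family, secreted proteins induced in stressed acinar cells, had 3 of 6 genes lower in each tumor-to-normal comparison. Reg1 was not well above background on any tumor YFP+ array, where it was at least 200-fold lower, and differed by -7.58 in YFP- samples. Reg2 differed by -5.33 and -4.37 and Reg3d by -3.24 and -4.87 in YFP+ and YFP- samples. Reg2 was also lower in tumor YFP+ than YFP- samples (-2.36).

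Some markers of other cell types also differed between these groups, and not always in the direction of the acinar genes. Between tumor YFP+ and YFP- samples, 8 of 10 fibroblast genes and 5 of 11 ductal and epithelial genes were lower, and 5 of 9 plasma cell genes were higher, while 0 of 13 macrophage genes and 0 of 9 islet genes passed the limma test. Over all genes 1.62% were called lower and 0.766% higher. The log2 summed level of the fibroblast genes was 2.97 to 3.78 on tumor YFP+ and 6.01 to 6.68 on tumor YFP- arrays, with Col3a1 and Col1a2 at means of 0.61 and 0.08 against 4.48 and 4.25. Ductal and epithelial genes summed to 2.37 to 2.84 on tumor YFP+ and 4.10 to 4.93 on tumor YFP- arrays, with Krt18 and Krt7 at 0.81 and 0.26 against 2.97 and 0.89. Of these Krt7 did not pass the test, and neither did Epcam (-1.08 against -1.39) and Cdh1 (-1.37 against -1.83), whose means ran the other way. Plasma cell genes summed to 5.49 to 6.07 on tumor YFP+ and 4.06 to 4.72 on tumor YFP- arrays. Xbp1 and Prdm1 differed little, at 3.37 and 2.54 against 2.91 and 2.27, and Xbp1 did not pass the test. Mzb1 and Tnfrsf17 differed more, at 1.59 and -1.28 against -1.17 and -4.08. Xbp1 and Bhlha15 stand in both the plasma cell list and the wider acinar list.

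In normal pancreas the fibroblast sum was 3.44 to 4.16 on YFP+ and 2.84 to 6.12 on YFP- arrays, and the islet sum 2.52 to 3.29 on YFP+ and 2.87 to 3.96 on YFP- arrays. The islet genes Ins2 and Pcsk2 averaged 1.36 and 1.24 in normal YFP+ against 2.14 and 1.33 in normal YFP- samples. On tumor arrays the islet sum was 1.19 to 3.22 in the YFP+ and 1.10 to 2.45 in the YFP- population. On YFP+ and YFP- arrays of normal pancreas the ductal and epithelial sum was 1.68 to 2.12 and 2.35 to 2.62, and the plasma cell sum 3.79 to 4.02 and 3.67 to 4.11. Between tumor and normal pancreas, 3 (YFP+) and 7 (YFP-) of the 11 ductal and epithelial genes and 6 and 4 of the 9 plasma cell genes were higher in tumor, with 2 plasma cell genes lower in YFP- samples. Of the fibroblast genes 2 and 4 were higher and 1 was lower in YFP+ samples, and of the islet genes 2 and 4 were lower. Of the macrophage genes 2 were lower in YFP+ samples, and 1 was higher and 1 lower in YFP- samples. Over all genes the shares called lower and higher were 6.07% and 6.03% in YFP+ samples, and 7.74% and 8.03% in YFP- samples. Of the defining markers, Lum and Pdgfra were not well above background on any tumor YFP+ array, Sst on any of the 10 tumor arrays, and Cdh1 and Cftr on any of the 6 normal arrays. The part of these other cell types in the acinar results was not tested.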

How the data were processed

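Total RNA from sorted macrophages was amplified, labelled with Cy5 and hybridised to Agilent mouse arrays, per the labels' protocols. Per the file headers, the deposited intensity values are the red channel of each array, and the submitters' processing notes name Agilent Feature Extraction 11.5.1.1. A second deposited table, used as an alternative, holds log2 values of the same arrays. Its sorted columns differ by at most 0.0069, so that the arrays share 1 distribution with a median of 9.02. The step that made it is not given in the sources used here.

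Processed signals were taken to log2, and from each array its own 75th percentile (39429 probes, controls left out) was subtracted. Spots marked as outliers were left out, and spots of a probe were averaged. Probes well above background on at least 3 of 16 arrays were kept, and for a gene with several probes (4946 genes) the brightest was used, which gave 24297 genes. Group means were fitted with limma 3.58.1 in R 4.3.3 over all 16 arrays and all genes, in 5 comparisons, two-sided with Benjamini-Hochberg adjustment and a threshold of 0.05. Alternatives were another background correction, normalization, filter or probe rule, the slide and title number as blocks, array weights and leaving out each title number. The fit was tested on simulated data. The number of arrays limits the precision.

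Values per array are given for members past the threshold in any comparison (at most 12, by smallest adjusted p), the 4 largest and 4 smallest remaining SDs, the brightest members (Cpa1 by its mean over all arrays, Prss2 by its normal level) and Ptf1a, Rbpjl and Nr5a2, and others are given by their differences. The members, lists and tests were chosen with earlier results of these data known. No deposited column of sample values was left unused. Of the 34 genes 2 had no matching name. Some values of the wider acinar list are not reported here.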

Additional observations from a re-analysis of the deposited data

Results flagged for a closer look

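In 62 groups of 5 samples formed by 1 gene and 1 tumor population, and 2 groups of the common acinar level, 3 samples stood apart from the other 4 by Dixon's criterion, which chance alone does in about 1 in 20 groups. Prss1 was -2.89 in tumor YFP+ sample 23547, against -1.69 to -1.36 in the other 4. Cpb1 was -5.36 in tumor YFP+ sample 23551, where it was not well above background, against -4.73 to -4.67 in the other 4. Cel was -3.11 in tumor YFP+ sample 23548, against -2.14 to -1.83 in the other 4. No group of 3 normal samples was examined in this way.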

How the results depend on the processing

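Under 9 alternatives in processing and 8 that left out 1 title number each, the 27 and 30 genes lower in tumor were 26 to 28 (YFP+) and 29 to 31 (YFP-), and no gene past the threshold changed direction. The count of 8 genes lower in tumor YFP+ was 4 with slide as a block and 6 to 8 under the other 8 processing alternatives, and 2 to 9 when a title number was left out (2 without 23547, 9 without 23548). With the title number as a replicate block it was 6, and this block changed no count by over 1.5 times. Each number occurs in both populations of its tissue, but the numbers were not taken to pair the samples, since the labels state no pairing. Same-numbered samples deviated together at r = -0.29 to 0.315 across genes. Correlations over all genes cannot decide whether they are paired, since noise in most genes can hide a shared source. With array weights 7 genes passed in normal pancreas and 2 in the comparison of YFP differences, where both counts were otherwise 0. The cause was not tested. The median over genes in normal pancreas was -1.28 without 23912 and -0.64 without 23917, and that of the comparison of YFP differences was 0.25 with slide as a block, against 0.62. With normexp background correction the median tumor difference was -5.29 in YFP+ and -5.44 in YFP- samples. Signals near background limit Cela2a, Cpb1, Pnliprp1, Pnliprp2, Rnase1 and Cuzd1 in tumor. Try4 in tumor YFP+, Gp2 and Klk1 in tumor YFP- and Klk1b5 in both were well above background on 4 of 5 arrays.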
